A study of Mus musculus with 12 samples.

Results

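The growth factor axes described here are those of platelet-derived growth factor (PDGF), fibroblast growth factor (FGF) and insulin-like growth factor (IGF). They comprise 10 of the 55414 genes in the deposited count table: the PDGF ligands Pdgfa, Pdgfb, Pdgfc and Pdgfd, the PDGF receptors Pdgfra and Pdgfrb, the FGF ligand Fgf2 with the receptor Fgfr1, and the IGF ligand Igf1 with the receptor Igf1r. The genes were taken by symbol, and each symbol matched 1 Ensembl identifier. All 10 were measured in every library and passed the filter on low counts.

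PDGF ligands are secreted as dimers that bind receptor tyrosine kinases on mesenchymal cells. PDGF receptor beta is typical of pericytes and smooth muscle cells, and PDGF receptor alpha of fibroblasts. PDGF-C and PDGF-D are secreted in a latent form that extracellular proteases cut to activate. FGF2, or basic FGF, binds its receptor together with heparan sulfate chains of cell surface proteoglycans. IGF1 signals through the IGF1 receptor, and IGF binding proteins hold most extracellular IGF until proteases release it. Hepatocytes are the main source of circulating IGF1, and mesenchymal cells and macrophages make it locally.

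RNA sequencing was performed on the inferior vena cava (IVC) of 12 wild-type C57BL/6J mice aged 10 wk, collected on day 7 after surgery. In the AVF group (n = 6, 3 male and 3 female) a needle puncture joined the infrarenal aorta to the IVC, making an arteriovenous fistula (AVF). The sham group (n = 6, 3 male and 3 female) had the same operation without the puncture. Each library came from 1 mouse. Samples #05 and #09, the AVF male 2 and AVF female 2 libraries, were set apart by the study for their expression. The labels do not give them as a group, so they stayed in the AVF group and their values are also given alone.

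The libraries held 15177881 to 22717423 expected counts. In AVF female 1, 46.0% of the counts fell on genes annotated as ribosomal RNA or added to them by symbol. In the other libraries between 2.39% and 12.6% did. The tissue label was checked against marker genes, whose library-scaled counts (normalized CPM, by the trimmed mean of M-values) were summed by list. The sum of 8 endothelial markers was between 1753 and 2974.5 in the sham group and between 2074 and 2655 in the AVF group, and that of 8 smooth muscle markers was between 2783 and 5009 and between 2504 and 5271. Of 8 hepatocyte markers, serum transferrin (Trf) not counted, the sum was 2731 in sample #05 and 8064 in sample #09, and no higher than 6.06 in any other library. Results that lean on these libraries are given with and without them.

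Of the 10 growth factor and receptor genes, 2 rose in the AVF group and 0 fell at an adjusted p under 0.05 (edgeR quasi-likelihood test, Benjamini-Hochberg adjustment over 15912 genes). Over all genes tested, 8.63% were called higher and 5.13% lower. The 2 genes were Igf1, a ligand, and Pdgfrb, a receptor. Igf1 alone also met the fold criterion of the study for a differentially expressed gene (DEG), a 2-fold change or more. Of all genes tested, 3.37% were DEG upward and 1.40% downward. The median log2 fold change of the 10 genes was 0.20 and that of all genes tested was -0.01. Leaving out samples #05 and #09, or any 1 library, the same 2 genes were called except that Pdgfa was called as well without sham male 3.

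**Figure D1:**
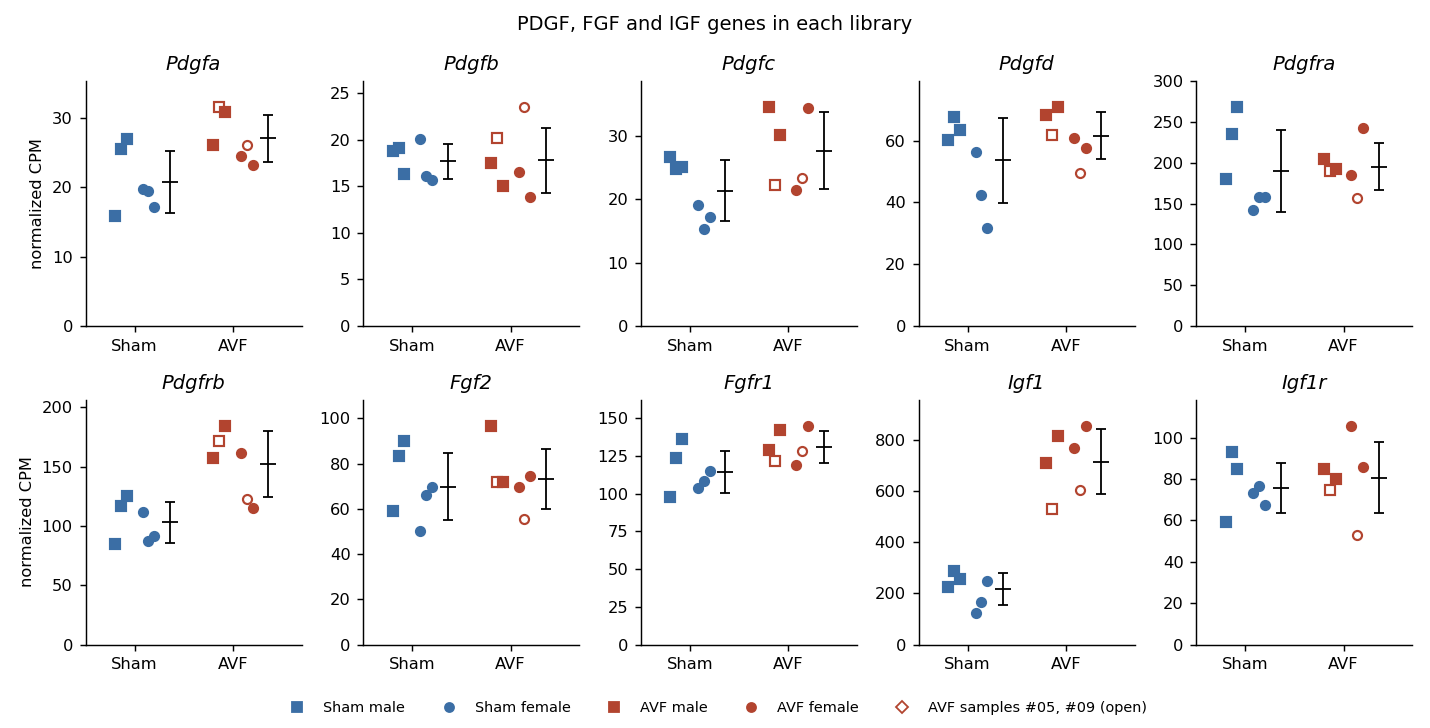
Normalized CPM (y axis, from 0) of the 10 genes in the sham and AVF groups, 1 point per library, squares for male and circles for female mice, open symbols for samples #05 and #09, with the mean and SD of each group beside the points. Igf1 was the 1 gene of the 10 in which the 6 AVF libraries, from 529 to 854, all lay above the 6 sham libraries, from 122 to 287.

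Igf1 was at 122, 236 and 287 normalized CPM (lowest, median and highest) in the sham group and at 529, 739 and 854 in the AVF group. The groups did not overlap, as was so for 4.55% of all genes tested with AVF above sham and for 1.51% with AVF below. The sham mean was 218 ± 61.4 and the AVF mean 713 ± 126 (SD, n = 6 each). The fold change was 3.28, with a 95% interval of 2.43 to 4.42, which is a log2 fold change of 1.71 (SE 0.20, adjusted p = 0.00031). The gene was covered by 2342 to 18225 counts in a library, so counting error was small beside the spread between mice.

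Its receptor, Igf1r, was at 59.1, 74.9 and 93.2 normalized CPM in the sham group and at 53.0, 82.3 and 106 in the AVF group. The groups overlapped over most of their range. The log2 fold change was 0.09 with a 95% interval of -0.23 to 0.41 (adjusted p = 0.72), so a change of the size seen in Igf1 lay outside the interval. The lowest and highest AVF libraries were sample #09 and AVF female 1. Without samples #05 and #09 the log2 fold change of Igf1r was 0.23 (adjusted p = 0.25). On the scale of normalized CPM per kb of exon, the level of Igf1 over that of Igf1r within a library was 3.23, 5.90 and 7.31 in the sham group and 13.6, 17.7 and 21.9 in the AVF group, with no overlap.

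The sequences before 1 annotated start site of Igf1 and 1 of Igf1r are shown. They were chosen because this ligand and its receptor gave the largest and one of the smaller differences of the 10 genes. Igf1 lies on the plus strand at chr10:87693642-87772904 and Igf1r on the plus strand at chr7:67601518-67883416 (GRCm39). RefSeq promoter windows of an earlier build, GRCm38.p6, matched 7 of the 10 symbols, with 2 windows for Pdgfa. The windows printed are chr10:87860861-87861110 for Igf1 and chr7:67952007-67952256 for Igf1r in GRCm38.p6, each the 250 bases 5′ of 1 RefSeq start on the plus strand. A gene can have other starts, as the 2 windows of Pdgfa show. Where these starts lie in the GRCm39 spans was not checked. Capitals mark matches on either strand to 3 motifs of general promoter elements. They are the CCAAT box, the TATA box searched as TATAAA, and the GC box searched as GGGCGG, none of which contains another.
Igf1: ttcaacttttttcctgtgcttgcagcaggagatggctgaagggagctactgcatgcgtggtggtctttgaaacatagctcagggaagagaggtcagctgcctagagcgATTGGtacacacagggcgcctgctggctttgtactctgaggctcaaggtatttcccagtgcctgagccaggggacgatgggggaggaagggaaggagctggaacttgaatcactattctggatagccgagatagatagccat
Igf1r: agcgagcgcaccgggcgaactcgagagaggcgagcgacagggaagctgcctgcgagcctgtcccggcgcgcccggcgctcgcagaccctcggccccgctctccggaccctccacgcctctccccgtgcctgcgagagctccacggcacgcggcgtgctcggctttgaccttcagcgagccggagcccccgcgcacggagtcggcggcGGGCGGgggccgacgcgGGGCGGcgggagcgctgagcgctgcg
The Igf1 window held 1 match, CCAAT read on the minus strand, and the Igf1r window held 2, both GGGCGG on the plus strand. Of 32851 windows of the same length, 33.9% held CCAAT, 12.4% TATAAA and 32.7% GGGCGG. G and C made up 52.8% of the Igf1 window, near the median window at 52.4%, and 77.6% of the Igf1r window. The Igf1 window held 5 CG dinucleotides and the Igf1r window 42, where the median window held 6. These matches describe the letters and were not tied to the expression values.

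Pdgfrb was at 84.9, 101 and 125 normalized CPM in the sham group and at 115, 159 and 184 in the AVF group. All 6 AVF libraries were above the sham median and 4 of the 6 were above the highest sham library. The 2 AVF libraries within the sham range were sample #09 and AVF female 3. The fold change was 1.48, with a 95% interval of 1.20 to 1.82, or 0.56 on the log2 scale (SE 0.14, adjusted p = 0.021). Over the alternatives run, the adjusted p of Pdgfrb was between 0.0013 and 0.047.

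Pdgfra, the alpha receptor, was at 143, 169 and 268 normalized CPM in the sham group and at 156, 191 and 243 in the AVF group. The AVF libraries lay wholly within the sham range. Its log2 fold change was 0.04 with a 95% interval of -0.31 to 0.38 (adjusted p = 0.90).

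Per kb of exon, Pdgfrb made up 41.6%, 44.4% and 54.3% of the summed level of both PDGF receptors in the sham group and 41.8%, 55.7% and 59.2% in the AVF group (lowest, median and highest). Pdgfrb was the lower of the receptors in 5 of 6 sham libraries, the exception being sham female 1. It was the higher in 5 of 6 AVF libraries, and the exception, AVF female 3 at 41.8%, lay far from the next lowest at 53.8%. These shares are a description and carry no test. They depend on the exon lengths used, 12.31 kb for Pdgfra and 8.096 kb for Pdgfrb, each the union of all annotated exons. Before division by length, Pdgfra was above Pdgfrb in normalized CPM in every library.

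**Figure D2:**
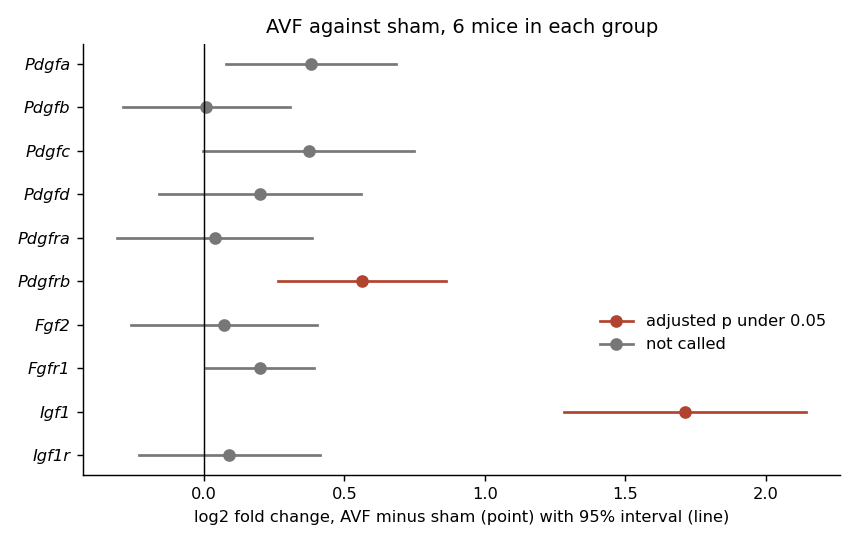
Log2 fold change of each of the 10 genes, AVF minus sham (x axis), as a point with its 95% interval, coloured where the adjusted p was under 0.05. The intervals of Igf1 (1.28 to 2.14) and Pdgfrb (0.26 to 0.86) lay furthest above 0.

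None of the PDGF ligands passed the test. Pdgfa, which encodes the A chain, was at 15.9, 19.6 and 27.0 normalized CPM in the sham group and at 23.2, 26.2 and 31.6 in the AVF group. All 6 AVF libraries were above the sham median, and 2 were above the highest sham library. Its log2 fold change was 0.38 with a 95% interval of 0.08 to 0.68 (adjusted p = 0.084). Without sham male 3, the highest sham library, it was 0.46 (adjusted p = 0.036), and with the Wald test of DESeq2 it was 0.39 (adjusted p = 0.044). An antisense transcript, 6330403L08Rik, overlaps Pdgfa on the other strand with a mean of 212 counts, and the counting used the strand.

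Pdgfc was at 15.4, 22.0 and 26.7 normalized CPM in the sham group and at 21.4, 26.8 and 34.6 in the AVF group. AVF male 1, AVF male 3 and AVF female 3 were above every sham library and the other AVF libraries were not. The log2 fold change was 0.37 with a 95% interval of -0.0020 to 0.75 (adjusted p = 0.16). Without samples #05 and #09 it was 0.50 (adjusted p = 0.11).

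Pdgfb, which encodes the B chain that recruits pericytes to vessels, was at 15.6, 17.6 and 20.1 normalized CPM in the sham group and at 13.9, 17.0 and 23.5 in the AVF group. The 2 AVF libraries above the highest sham library were samples #05 and #09, at 20.2 and 23.5. The log2 fold change was 0.0077 with a 95% interval of -0.29 to 0.30 (adjusted p = 0.98). Without those samples it was -0.17 (adjusted p = 0.37), so no direction is given for Pdgfb.

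Pdgfd was at 31.8, 58.3 and 67.5 normalized CPM in the sham group and at 49.6, 61.4 and 70.8 in the AVF group. AVF minus sham was 0.20 on the log2 scale with a 95% interval of -0.16 to 0.56 (adjusted p = 0.44). The lowest values of the sham group were those of sham female 3 and sham female 2, at 31.8 and 42.3.

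Per kb of exon, Pdgfd was the most abundant PDGF ligand in 10 of the 12 libraries. Its share of the summed level of the 4 ligands was 28.2%, 37.0% and 37.9% in the sham group and 29.5%, 35.3% and 38.1% in the AVF group. The exceptions were sham female 3 and sample #09, in which Pdgfb had the larger share, at 30.0% and 30.3%. These shares depend on the exon lengths used, 9.214 kb for Pdgfd and 4.248 kb for Pdgfb. Before division by length, Pdgfd was the highest of the 4 ligands in every library. In sham female 3 and sample #09 it was at 31.8 and 49.6 normalized CPM, and Pdgfb at 15.6 and 23.5. The share of Pdgfb was 20.8%, 26.8% and 30.0% in the sham group and 17.5%, 21.3% and 30.3% in the AVF group. The shares of Pdgfa and Pdgfc lay between 13.6% and 28.4% in all libraries.

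**Figure D3:**
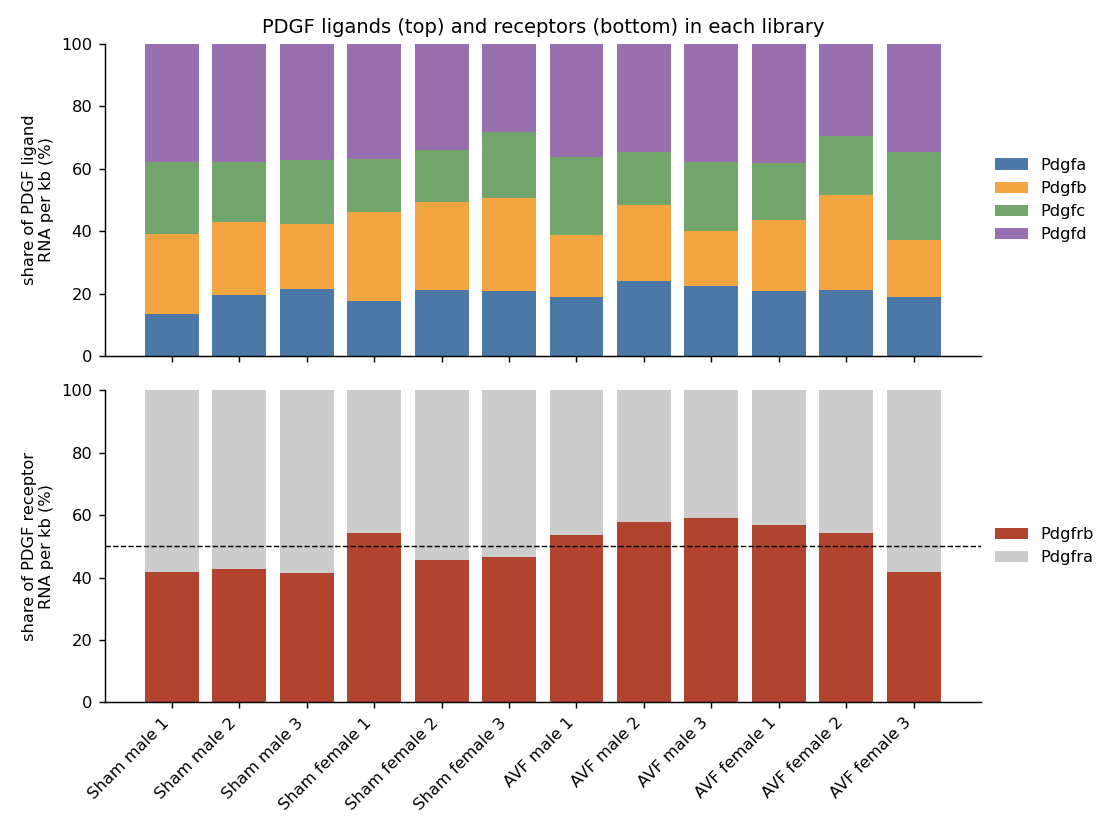
Share of each PDGF ligand (top) and of each PDGF receptor (bottom) in the summed level per kb of exon, in percent, 1 bar per library. The dashed line marks 50%. Pdgfrb was above it in 5 of 6 AVF libraries and 1 of 6 sham libraries, and the ligand shares overlapped between the groups.

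Fgf2 was at 50.3, 67.8 and 90.1 normalized CPM in the sham group and at 55.3, 71.9 and 96.7 in the AVF group. One AVF library, AVF male 1, was above the highest sham library. AVF minus sham was 0.07 on the log2 scale with a 95% interval of -0.26 to 0.40 (adjusted p = 0.79). The antisense gene Nudt6 overlaps Fgf2 on the other strand with a mean of 39.5 counts, few beside the 645 to 2130 counts of Fgf2.

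Fgfr1 was at 98.1, 112 and 136 normalized CPM in the sham group and at 119, 129 and 145 in the AVF group. All 6 AVF libraries were above the sham median and 2 were above the highest sham library. The log2 fold change was 0.20 with a 95% interval of 0.01 to 0.39, and its adjusted p was 0.146. Fgfr1 had the smallest spread of the 10 genes in the AVF group, a coefficient of variation of 8.02%.

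The order of the levels per kb of exon was headed by Igf1 in both groups, with a median of 23.0 in sham and 72.3 in AVF libraries. Igf1 was above the next gene in all 6 libraries of each group. The order depends on the exon lengths used. The PDGF receptors came next, with Pdgfra at a median of 13.8 and Pdgfrb at 12.5 in the sham group, and Pdgfrb at 19.7 and Pdgfra at 15.5 in the AVF group. Fgf2 and Fgfr1 followed at 9.91 and 8.74 in the sham group and at 10.5 and 10.1 in the AVF group, where Fgf2 was the higher in 3 of 6 libraries. Pdgfd was sixth in both groups. Igf1r, Pdgfb, Pdgfc and Pdgfa made up the end of the order, with medians between 2.90 and 4.16, and neighbours among them were not separated by their spread in the AVF group.

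Markers of other cell types moved with the operation beside Igf1 and Pdgfrb. In bulk tissue, more cells of a type and more RNA per cell cannot be told apart. Of 8 macrophage markers, 6 rose, and their summed normalized CPM was 343 to 619 in the sham group and 613 to 1096.5 in the AVF group, 5 of 6 AVF libraries being above the highest sham library. All 6 proliferation markers rose, from sums of 42.7 to 79.8 to sums of 174 to 333. Of 7 fibroblast markers 4 rose and 2 fell, with overlapping sums of 5252 to 7958 and 5547 to 6786. The sum of 6 pericyte markers was 813 to 1721 in the sham group and 1424 to 3513.5 in the AVF group, carried by Rgs5, the 1 pericyte marker that rose. The other pericyte markers, Notch3, Cspg4, Kcnj8, Abcc9 and Higd1b, did not pass the test. Of 8 smooth muscle markers 1 rose, Actg2, by 0.84 on the log2 scale (adjusted p = 0.024), with sums that overlapped. Of 6 brown adipocyte markers Cidea and Cox7a1 fell (adjusted p = 0.016 and 0.0033), and the sum was 102 to 1725 in the sham group and 44.7 to 310 in the AVF group. Of 9 hepatocyte markers 8 rose, and 1 adrenal cortex marker of 2 tested rose. None of the endothelial, white adipocyte, platelet, T cell, B cell, neuron, Schwann cell, striated muscle and mesothelium markers tested was called. The part of these cells in the levels of Igf1 and Pdgfrb was not tested.

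The hepatocyte markers were high in samples #05 and #09 alone. Igf1 was at 529 in sample #05 and 602 in sample #09, the lowest values of the AVF group. Without both samples the log2 fold change of Igf1 was 1.86 (adjusted p = 0.00070). AVF female 3 had the highest macrophage sum, 1096.5, and the highest Igf1, 854. Its fibroblast, smooth muscle, B cell and proliferation sums were also the highest among AVF libraries. Sham female 1 had the lowest macrophage sum, 343, and the lowest Igf1, 122. At about the same macrophage sum, sham male 3 at 619 had 257 normalized CPM of Igf1 and sample #09 at 613 had 602. AVF female 1, with a sum of 631, had 769. The correlation of Igf1 with the macrophage sum was 0.48 among AVF libraries and 0.84 among sham libraries. With the B cell sum it was 0.81 and 0.56, and with the proliferation sum 0.755 and 0.10. The B cell sums were only 2.36 to 12.3 normalized CPM. With the sum of all 9 hepatocyte markers the correlation was -0.86 and -0.37, and with the adrenal cortex sum -0.78 and 0.07. The brown adipocyte sum gave -0.38 and -0.86, the neuron sum 0.22 and 0.75, and the Schwann cell sum 0.14 and 0.81. With the other lists the values were between -0.59 and 0.61. Each value rests on 6 libraries. The part of hepatocytes or macrophages in the Igf1 values was not tested.

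**Figure D4:**
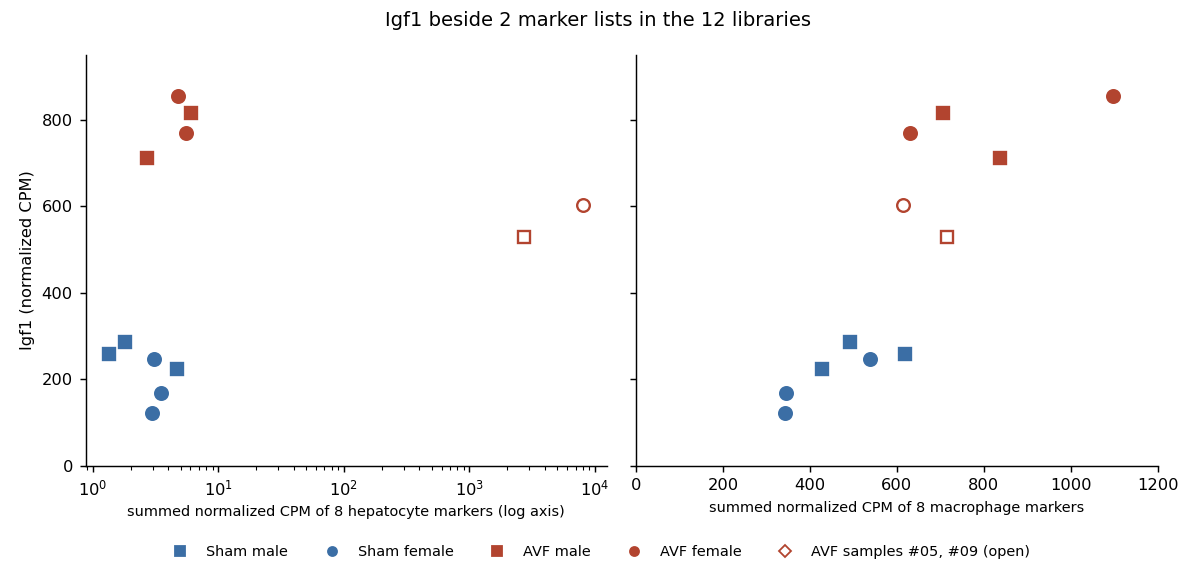
Normalized CPM of Igf1 (y axis) in the 12 libraries beside the summed normalized CPM of 8 hepatocyte markers on a log axis (left) and of 8 macrophage markers (right), open symbols for samples #05 and #09. Those samples lie at 2731 and 8064 on the hepatocyte axis with the lowest Igf1 of the AVF group, and all AVF libraries lie above all sham libraries on the Igf1 axis.

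The genes whose values most resembled Igf1 within the groups were Khdrbs1, Pdp1 and Shoc2. Their Pearson correlations with it were 0.95, 0.95 and 0.90, over the deviations of log2 CPM from the group means in the 12 libraries and among 9412 genes with a mean of at least 10 normalized CPM. Those most like Pdgfrb were Nacc2, Agrn and Cachd1, at 0.95, 0.92 and 0.91. The libraries share depth and tissue make-up, and these values are a description.

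The wider PDGF, FGF and IGF systems were followed through 98 other genes, of which 84 could be tested. In the AVF group 11 rose and 4 fell, against 8.63% higher and 5.13% lower over all genes tested. Their median log2 fold change was 0.09, and 6 were DEG. Without samples #05 and #09 only 1 gene fell, Igfbp3. Over all genes, 319 of 15531 tested fell in that fit, against 817 of 15912 in the main fit. Of the other pathway genes, 2 fell without any 1 of AVF male 2, AVF male 3, AVF female 3, sham male 1, sham male 2 or sham female 2. Over all genes, 420, 499, 446, 468, 766 and 415 fell in those fits, in that order. These lists were chosen with earlier results of these data known, so they are read only as counts and values.

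Among 7 genes that process PDGF or bind it or its receptors, 4 rose. Sparc, a matrix protein that binds PDGF among other ligands, was at 2891 to 5192 normalized CPM in the sham group and at 6667 to 9399 in the AVF group. The groups did not overlap, and the log2 fold change was 1.01 (adjusted p = 0.0039). Plat, the tissue plasminogen activator that can cut latent PDGF-C, was at 42.9 to 69.9 in the sham group and at 69.1 to 104 in the AVF group, with a log2 fold change of 0.61 (adjusted p = 0.020). Lrp1, an endocytic receptor that associates with PDGF receptor beta, and Pdgfrl, a PDGF receptor-like gene, rose by 0.61 and 0.62 on the log2 scale (adjusted p = 0.022 and 0.025). Without sham female 2 the adjusted p of Pdgfrl was 0.0501. The log2 fold changes of Furin, Plau and Nrp1 were 0.40, 0.32 and 0.14 and did not pass the test.

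Of 21 other FGF ligands only 10 passed the filter on low counts, and 1 of these rose. Fgf18 was at 1.10 to 3.00 normalized CPM in the sham group and at 2.91 to 6.68 in the AVF group, with a log2 fold change of 1.08 (adjusted p = 0.024). Its highest AVF value was that of sample #09, and without samples #05 and #09 it was 0.84 (adjusted p = 0.095). Fgf1, the ligand that acts on all FGF receptors, was at 39.6 to 74.2 in the sham group and at 37.4 to 65.0 in the AVF group (adjusted p = 0.084). Fgf6, Fgf8 and Fgf20 were at 0 counts in all 12 libraries, which allows up to 3 counts in a library.

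Among 13 other FGF receptors and co-receptors, 11 were tested and 1 rose. Sdc2, or syndecan-2, a heparan sulfate proteoglycan, was at 105 to 153 normalized CPM in the sham group and at 139 to 212 in the AVF group, with a log2 fold change of 0.46 (adjusted p = 0.030). This call was lost in 5 of the 12 fits that left out 1 library, those without AVF male 2, sham male 1, sham female 1, sham female 2 or sham female 3, with adjusted p up to 0.0655. Fgfr2 was at 6.29 to 20.0 in the sham group and at 14.5 to 24.7 in the AVF group (adjusted p = 0.073). Fgfr4, which hepatocytes express, was not tested, and its highest values were 2.25 in sample #09 and 0.157 in the sham group.

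**Figure D5:**
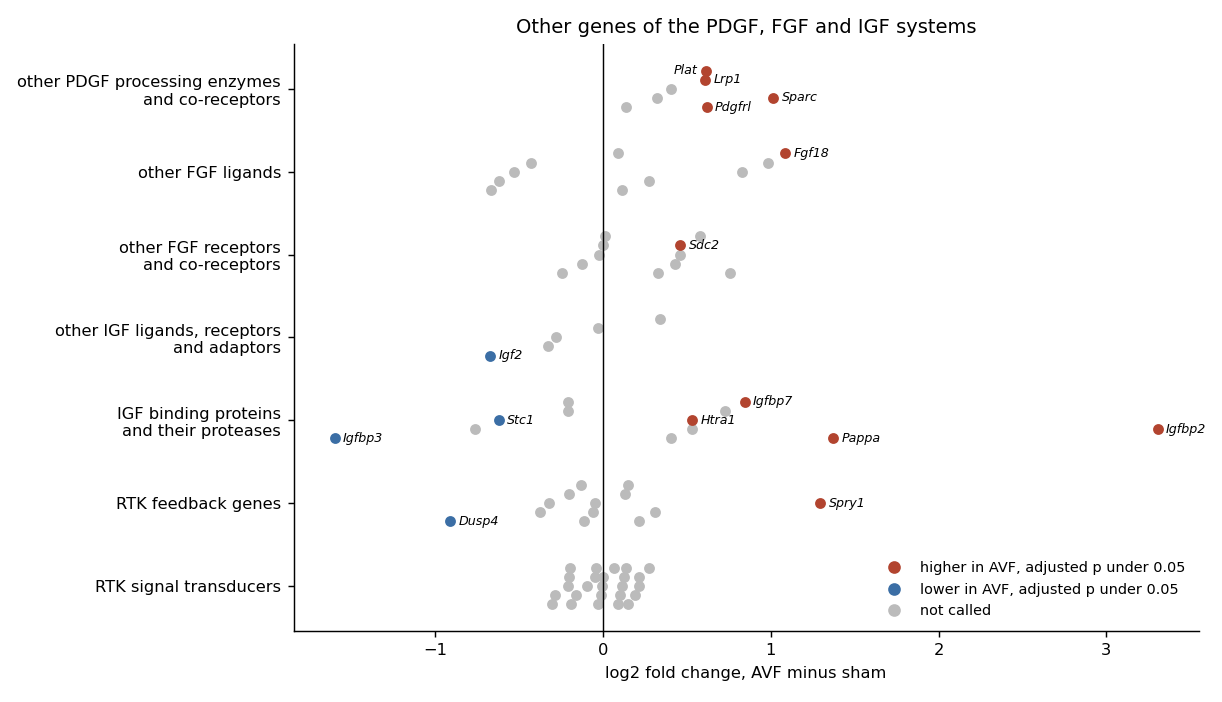
Log2 fold change, AVF minus sham (x axis), of the other genes of the PDGF, FGF and IGF systems that were tested, by list (y axis, RTK for receptor tyrosine kinase), named where the adjusted p was under 0.05. Igfbp1, at 0 counts in every sham library, is not drawn. Among the IGF binding proteins and their proteases 4 genes rose and 2 fell, and among 25 signal transducers none was called.

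The IGF binding proteins and their proteases held the most calls, 4 higher and 2 lower of 13. Pappa, the pappalysin that cuts IGF binding proteins and releases IGF, was at 6.93 to 10.2 normalized CPM in the sham group and at 14.2 to 30.4 in the AVF group. The groups did not overlap, and the log2 fold change was 1.37 (adjusted p = 0.0011). Igfbp7, a low-affinity IGF binding protein of the vessel wall, was at 427 to 666 and at 791 to 1078.5, again without overlap, with a log2 fold change of 0.84 (adjusted p = 0.0028). Htra1, a secreted serine protease, rose by 0.53 on the log2 scale (adjusted p = 0.0089).

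Igfbp2 was at 0.387 to 3.58 normalized CPM in the sham group and at 3.89 to 29.3 in the AVF group, a log2 fold change of 3.31 (adjusted p = 0.0049). Samples #05 and #09 were at 16.2 and 13.1, within the range of the other AVF libraries. Igfbp1, a hepatocyte product, was at 0 in every sham library and reached 3.31 in sample #05 and 11.9 in sample #09. Igfbp1 was not called (adjusted p = 0.083), and the hepatocyte markers were high in the same 2 samples.

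Igfbp3, the main IGF carrier of plasma, moved the other way, from 92.5 to 269 normalized CPM in the sham group to 34.1 to 80.9 in the AVF group. It fell by 1.60 on the log2 scale (adjusted p = 0.0047) with no overlap between the groups. Stc1, or stanniocalcin-1, an inhibitor of Pappa, was at 18.9 to 40.2 in the sham group and at 11.7 to 22.2 in the AVF group, and fell by 0.62 (adjusted p = 0.046). The call of Stc1 was lost in 9 of the 12 fits that left out 1 library, with adjusted p up to 0.095. It was kept in those without AVF female 1, AVF female 2 or sham male 3. Without both samples #05 and #09 Stc1 was not called. Igfbp4, a substrate of Pappa, was at 335 to 600 in the sham group and at 465 to 791 in the AVF group (adjusted p = 0.066). Igfbp5 was at 712 to 2526 and at 595 to 1109 (adjusted p = 0.14).

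Of the other IGF ligand, receptors and adaptors, Igf2 was the 1 gene of 5 called. It was at 40.4 to 59.4 normalized CPM in the sham group and at 23.8 to 43.0 in the AVF group, and fell by 0.68 on the log2 scale (adjusted p = 0.017). Igf1 and Igf2 differed in opposite directions. Without samples #05 and #09 the log2 fold change of Igf2 was -0.58 (adjusted p = 0.059). The log2 fold changes of Igf2r, Insr, Irs1 and Irs2 were between -0.33 and 0.34.

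Downstream of the receptors, 0 of 25 signal transducers were called in either direction by edgeR, and their median log2 fold change was -0.0076. Their log2 fold changes were between -0.30 and 0.28, 7 had an unadjusted p under 0.05, where 31.6% of all genes tested did, and DESeq2 called 4, where it called 21.4% of all genes tested. Among 13 feedback genes tested, Spry1, an inhibitor of receptor tyrosine kinase signalling, rose from 7.55 to 13.3 normalized CPM in the sham group to 17.6 to 45.2 in the AVF group, with a log2 fold change of 1.29 (adjusted p = 0.0043). Dusp4, a phosphatase that acts on mitogen-activated protein kinases, was at 9.24 to 22.2 and at 4.42 to 11.9, and fell by 0.91 on the log2 scale (adjusted p = 0.041). The call of Dusp4 was lost in 9 of the 12 fits that left out 1 library, with adjusted p up to 0.090. It was kept in those without AVF male 1, AVF female 2 or sham female 3. Without both samples #05 and #09 Dusp4 was not called. The other 11 feedback genes tested did not pass, with log2 fold changes from -0.37 for Spred3 and -0.32 for Etv1 to 0.31 for Dusp5.

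The study compared the sexes as well. None of the 10 growth factor and receptor genes was called between female and male AVF mice (lowest adjusted p = 0.98) or sham mice (lowest adjusted p = 0.39), in 1 fit of the 4 groups by edgeR. Over all genes tested, 0.0314% were called between the sexes among AVF mice and 0.0566% among sham mice. At an unadjusted p under 0.05 there were 0 of the 10 among AVF mice and 3 among sham mice, against 4.73% and 9.41% of all genes, and DESeq2 gave 0 called in each with 0 and 4 at an unadjusted p under 0.05.

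The 3 genes were Pdgfra, Pdgfd and Pdgfc, all lower in female than in male sham mice. Pdgfra was at 143 to 158 normalized CPM in female and at 180 to 268 in male sham mice. Pdgfc was at 15.4 to 19.1 and 24.7 to 26.7, and Pdgfd at 31.8 to 56.3 and 60.2 to 67.5. The 3 genes were picked by unadjusted p, and the share of all genes with ranges set apart in this way was not counted. The log2 differences of Pdgfra, Pdgfc and Pdgfd, female minus male, were -0.58, -0.57 and -0.55, with adjusted p of 0.39, 0.44 and 0.41. All 10 log2 differences in the sham group were negative, from -0.58 to -0.07, and the median over all genes tested was -0.009. The 10 genes correlated with each other within the groups, from -0.53 to 0.79, so their directions are not independent. With 3 mice in each group and the adjusted p where they are, these sex differences are values and not calls.

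The response of Igf1 to the fistula was seen in both sexes. In males it was at 224 to 287 normalized CPM in the sham group and 529 to 815 in the AVF group, and in females at 122 to 247 and 602 to 854. The difference between the sexes in the AVF minus sham change was 0.63 on the log2 scale, female minus male, with a 95% interval of -0.15 to 1.41 (adjusted p = 0.93). Pdgfrb was at 84.9 to 125 and 157 to 184 in males and at 87.6 to 112 and 115 to 161 in females. For Pdgfrb, the difference between the sexes in the AVF minus sham change was -0.19, with a 95% interval of -0.74 to 0.35 (adjusted p = 0.95). No gene of the 10 passed the test of sex by operation by edgeR or by DESeq2, with 1 of the 10 at an unadjusted p under 0.05 by each, and 0% of all genes passed it in edgeR and 5.11% had an unadjusted p under 0.05.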

How the data were processed

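The authors trimmed 101-base paired reads of stranded poly(A) libraries with PRINSEQ and Trimmomatic 0.39, aligned them with STAR 2.7.7a to GRCm39 with Ensembl annotation and counted genes with RSEM 1.3.3 in reverse-strand mode. The deposited values are expected counts, of which 5.72% to 7.75% in a library were not whole. They were rounded to whole numbers. Gene names, coordinates and exon lengths came from GENCODE M39, which matched 54749 of 55414 identifiers.

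Genes above 1 CPM in at least 2 samples were kept. AVF minus sham was tested with the quasi-likelihood test of edgeR 4.0.16 (R 4.3.3, TMM scaling, no covariates), and the sexes in 1 fit of 4 groups. p-values were adjusted by Benjamini-Hochberg over all genes tested, and a gene was called at an adjusted p under 0.05. The SE is the log2 fold change from a fit with no prior count, divided by the square root of F. Intervals are 95% and centred on the log2 fold change given, which was fitted with a prior count. Normalized CPM in the text is the rounded count divided by the scaled library size (CPM). Levels between genes are per kb of exon.

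Groups came from the labels. The members and gene lists were chosen with earlier results of these data known. Genes named were all members, up to 4 called genes in each direction of each list, and the 3 genes most correlated with each member, of which those of Igf1 and Pdgfrb are printed. Other genes named (uncalled list genes, Igfbp1, Fgfr4 and the genes at 0 counts) were chosen after their values were seen. No 2 libraries of a group agreed within sampling noise (chi-square per degree of freedom of at least 36.8 over 30 pairs). On simulated data with 200 changed genes among 15912, the AVF minus sham fit recovered 100 of the genes changed 2-fold and 175 of those changed 4-fold, and the test of sex by operation recovered 2 and 101. DESeq2 1.42.0 was an alternative. The names of the signal transducers are not reported here.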

Additional observations from a re-analysis of the deposited data

Results flagged for a closer look

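In 94 groups of 6 values (25 genes, the PDGF shares and the marker sums, in each of the AVF and sham groups), 4 had a library far from the others by the test of Dixon, which chance gives in about 1 of 20 groups. The share of Pdgfrb in both PDGF receptors was 41.8% in AVF female 3, where the next AVF library was at 53.8%. The sum of all 9 hepatocyte markers, Trf counted, was 10375 normalized CPM in sample #09, above 3616 in sample #05. The platelet marker sum was 200.39 in sham male 1, above 75.8, and the mesothelium marker sum was 24.6 in sham female 2, above 3.68. None of the 25 genes had such a library.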

How the results depend on the processing

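Igf1 and Pdgfrb kept an adjusted p under 0.05 under every alternative run, from 6.1e-16 to 0.0025 and from 0.0013 to 0.047. With a fold change of at least 2 as well, 1 of the 10 genes was higher, Pdgfrb being lost. Leaving out 1 library gave 2 to 3 of them higher. Of the other pathway genes, 11 higher became 20 and 4 lower became 7 with DESeq2, which called 12.4% of all genes higher and 9.00% lower. With the fold criterion 5 were higher and 1 lower, where 3.37% and 1.40% of all genes were. With no filter or a filter of more than 12 counts 2 were lower, where 477 of 30514 and 677 of 22163 genes were. Without samples #05 and #09, 1 was lower, and 2 to 6 were when 1 library was left out. Over all genes, 319 of 15531 and 415 to 947 fell in those fits, and 817 of 15912 in the main fit. Pdgfb, uncalled throughout, changed sign under the filter of more than 12 counts (-0.0045), with the replicate block (-0.0074) and without samples #05 and #09 (-0.17). Leaving out 1 library, log2 fold changes went from -0.091 to 0.068 for Pdgfb, -0.034 to 0.16 for Pdgfra and -0.024 to 0.15 for Fgf2, and the female minus male difference of Igf1 in the AVF group went from -0.040 to 0.25. The cause was not tested. Libraries with the same sex and number correlated at -0.133 to 0.253, over 0.1 in 3 of 6 pairs, so the numbers were not read as pairs. With the replicate block 3 of the 10 genes were higher, Pdgfa being the third (0.40, adjusted p = 0.030). Of the other pathway genes, 14 were higher and 3 lower, where 1307 and 676 of 15912 genes tested were. It changed no call of sex by operation. With 6 mice in a group, the upper ends of the 95% intervals of uncalled members were 0.30 to 0.75 on the log2 scale. Each library was 1 mouse at 1 time point.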
